A study of Ovis aries with 15 samples.

Results

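The 8 genes described here, ELOVL6, SCD, FASN, ACACA, SREBF1, SREBF2, HMGCS1 and INSIG1, belong to the synthesis of fatty acids and sterols, and they were taken by symbol from the 25592 genes measured in sheep kidney. They were selected on measured values, because ELOVL6 was listed higher in every AFB1 library than in every CON library, so the values of the AFB1 group against the CON group are given for the 8 genes as a description with no test. The animals were male Dorper × Small-tailed Han crossbred sheep, 4 months old, fed a total mixed ration for 21 days. The CON group (5 libraries) received the ration alone, the AFB1 group (5 libraries) received in addition 500 µg/kg dry matter of aflatoxin B1, a liver and kidney toxin made by Aspergillus moulds, and the AFB1_CUR group (5 libraries) received 500 µg/kg dry matter of aflatoxin B1 together with 800 mg/kg dry matter of curcumin, the yellow polyphenol of turmeric. No group received curcumin alone, so a change from curcumin without the toxin cannot be told apart here. Each library was polyadenylated RNA from a portion of the kidney of a sheep, with 50255295 to 68747047 counted reads.

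Cells make palmitate from acetyl-CoA through acetyl-CoA carboxylase and fatty acid synthase, and then lengthen and desaturate it. The mevalonate pathway makes cholesterol from the same acetyl-CoA. Both pathways are switched on by the sterol regulatory element-binding proteins, membrane-bound transcription factors that stay in the endoplasmic reticulum while sterols are plentiful, because INSIG proteins hold their escort there. The liver is the best known site of this programme, while the proximal tubule of the kidney burns fatty acids as its main fuel.

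The library labelled AFB1 replicate 1 stood apart from the other 14. Summed over 14 hepatocyte marker genes it held 54180 FPKM (mapped fragments scaled to transcript length and library size, a level per length), against 68.5 to 364 in the other libraries, and over 8 proximal tubule genes it held 36.3 against 1434 to 3593. Its expression went against its kidney label. Most of the sum in the other libraries came from SERPINA1 and TF, and albumin (ALB) was at 23.9 and 11.8 in AFB1 replicates 2 and 3 and at 0 to 4.48 in the remaining 12, against 25681 in AFB1 replicate 1. CYP2E1 was likewise at 3.83 and 1.92 in those AFB1 libraries and at 0 to 0.828 in the remaining 12. The part of this trace in the results was not tested. All group means, fold changes and tests therefore use the other 14 libraries (CON 5, AFB1 4, AFB1_CUR 5), and the values of AFB1 replicate 1 are given apart. Among these 14, AFB1 replicate 2 held 70.9 FPKM over 8 adipocyte genes, of which the fatty acid carrier FABP4 made up 62.8, where the others held 5.88 to 15.2, and the adipocyte hormone ADIPOQ was at 0.0381 in it. AFB1_CUR replicate 2 held 16.6 FPKM over 7 adrenal cortex genes and 354 over 7 macrophage genes, the highest of the 14 for both lists. The cholesterol carrier STAR made up 10.8 of the adrenal cortex sum, and the steroid side-chain cleavage enzyme CYP11A1 was at 4.57 in it, at 1.43 in AFB1 replicate 2 and at 0 in the other libraries. The other adrenal cortex genes were not raised along with them in AFB1_CUR replicate 2, where HSD3B1 (0.754) was the lowest of the 14, NR5A1 was at 0, and CYP11B1 (0.0159), CYP17A1 (0.279) and MC2R (0.182) lay within the CON range. In tissue RNA, fewer cells of a type and less RNA per cell cannot be told apart.

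On the per-length FPKM scale, the mean level over the 14 libraries was highest for SREBF2 (22.3 ± 3.91, SD) and SREBF1 (11.004 ± 2.99), followed by INSIG1 (9.71 ± 1.68), HMGCS1 (7.53 ± 0.596), FASN (6.003 ± 1.72), SCD (5.68 ± 2.64), ACACA (2.24 ± 0.322) and ELOVL6 (2.18 ± 0.511). Neighbours in this order were farther apart than the larger of their SDs for SREBF2 against SREBF1, INSIG1 against HMGCS1 and SCD against ACACA. The other neighbours lay within the larger of their SDs. Library by library, HMGCS1 stood above FASN in 12 of the 14. SREBF1 stood above INSIG1 in 8, FASN above SCD in 9 and ACACA above ELOVL6 in 9. HMGCS1 was the steadiest of the 8 genes, with a coefficient of variation of 7.93%, and SCD the most variable, with 46.5%. Every value rests on 345 to 11141 reads.

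**Figure D1:**
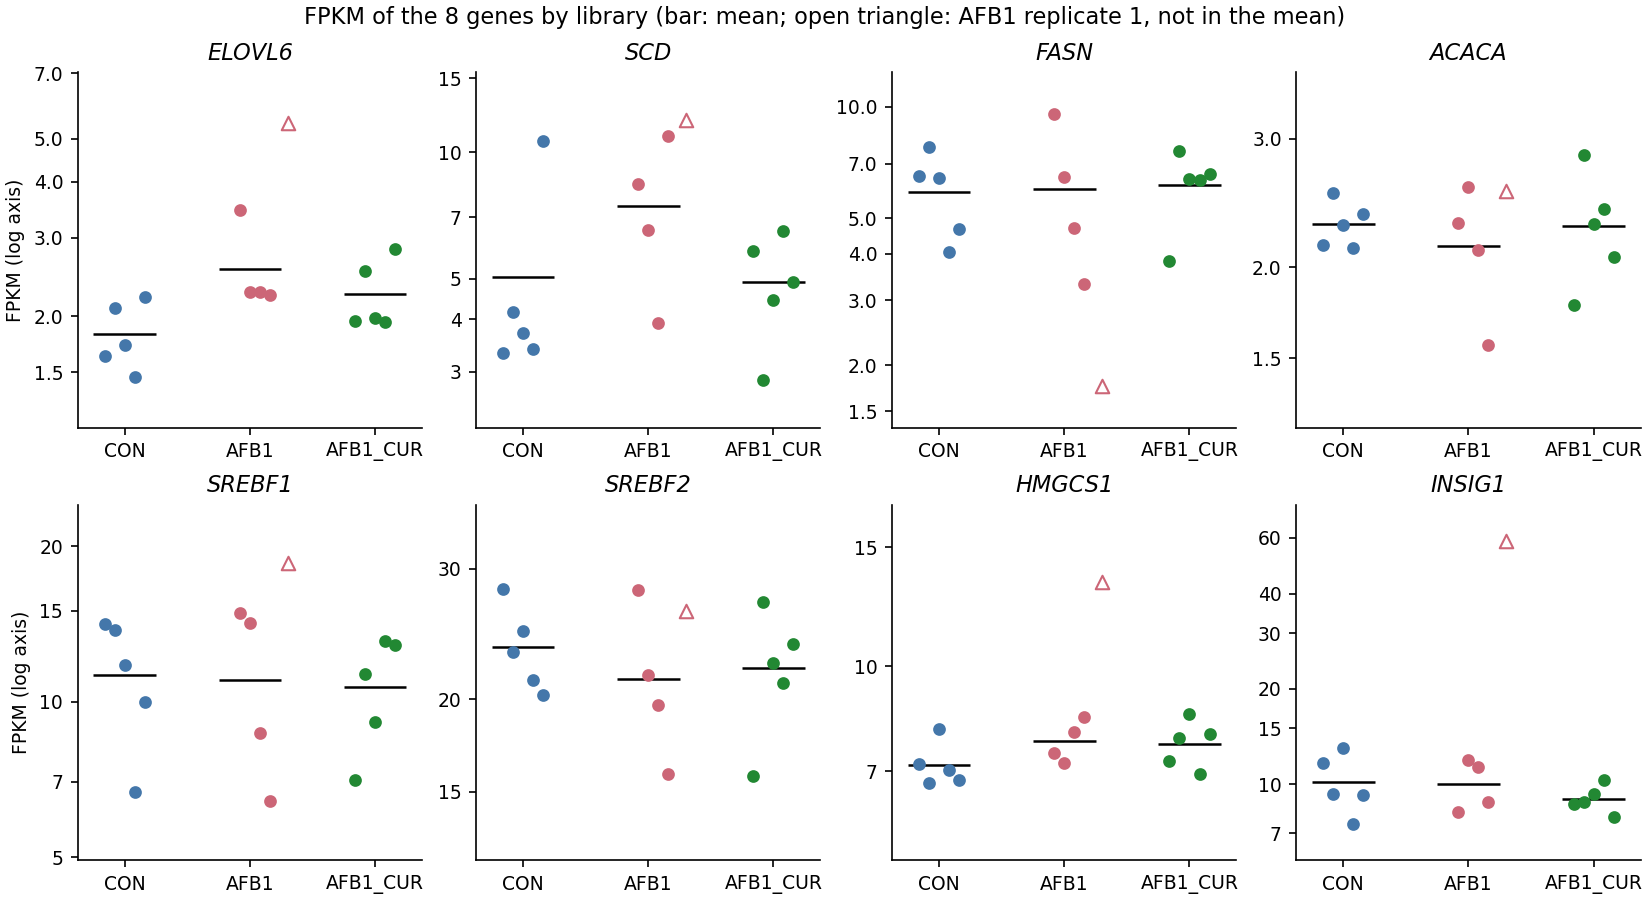
FPKM (log axis) of each of the 8 genes in every library, by group. Filled points are the 14 libraries used for the means (bars), and open triangles mark AFB1 replicate 1, which on this scale lay above all 14 for 5 genes and below all 14 for FASN.

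ELOVL6 encodes the elongase that turns palmitate into stearate, and lies on chromosome 6 from 15562118 to 15701183 on the plus strand. In the CON group its FPKM was 1.63, 2.09, 1.73, 1.46 and 2.21 in replicates 1 to 5. In the AFB1 group it was 3.47, 2.27, 2.26 and 2.23 in replicates 2 to 5, with 5.42 in AFB1 replicate 1. The AFB1 libraries thus lay above the CON libraries without overlap, but the lowest of the former (2.23) and the highest of the latter (2.21) were almost at the same level. In the AFB1_CUR group the values were 1.96, 2.53, 1.98, 1.94 and 2.83, which overlapped with both other groups. Non-overlap of this kind, AFB1 above CON, was seen for 0.508% of the 13394 genes tested over the 14 libraries and for 0.141% with AFB1 replicate 1 included. These shares are given for scale only, since ELOVL6 was chosen for that order.

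The order of ELOVL6 depended on the scaling. On CPM (counts scaled to a common library size) normalized by TMM (trimmed mean of M values, which corrects for differences in RNA composition), AFB1 replicate 3 stood at 3.65 on the log2 scale and CON replicate 5 at 3.68, so the groups overlapped. The fitted log2 fold change of AFB1 against CON was 0.47 (SE 0.16), and it was 1.07 (SE 0.34) once AFB1 replicate 1 entered. Without AFB1 replicate 2, which held the highest ELOVL6 and FASN of the 14 libraries and also the highest adipocyte sum, it was 0.34. The part of adipocyte RNA in this value was not tested. The fitted difference of AFB1_CUR from AFB1 was −0.25 (SE 0.16) and that from CON was 0.22 (SE 0.15), both also descriptions. Leaving out a library gave −0.34 to −0.12 for the former (the weakest without AFB1 replicate 2) and 0.13 to 0.31 for the latter (the lowest without AFB1_CUR replicate 5).

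SCD, at chromosome 22 from 21026048 to 21038058 (plus strand), encodes stearoyl-CoA desaturase, which places the double bond that makes oleate from stearate, so it acts directly after ELOVL6. Its FPKM was 3.32, 4.17, 3.72, 3.40 and 10.7 in CON replicates 1 to 5, and 8.39, 6.53, 3.92 and 10.9 in AFB1 replicates 2 to 5, with 11.9 in AFB1 replicate 1. It was 5.81, 2.87, 4.45, 6.49 and 4.91 in AFB1_CUR replicates 1 to 5. CON replicate 5 stood well above the other 4 CON libraries, and all groups overlapped.

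The mean of SCD was 7.44 ± 2.96 FPKM (SD, n = 4) in the AFB1 group, 5.05 ± 3.15 (n = 5) in the CON group and 4.90 ± 1.38 (n = 5) in the AFB1_CUR group. The log2 fold change of AFB1 against CON was 0.57 (SE 0.40) and moved to 1.04 without CON replicate 5 and to 0.25 without AFB1 replicate 5, so it moved with individual libraries. AFB1_CUR against AFB1 gave −0.66 (SE 0.40), with a 95% interval from −1.52 to 0.20, an unadjusted p of 0.122 and an adjusted p of 0.9999 in edgeR's quasi-likelihood test. Without CON replicate 5 the same comparison gave −0.66 with a smaller SE of 0.30 and an unadjusted p of 0.0493 in edgeR, so SCD was then called. Leaving out other libraries moved the value between −0.87 (without AFB1 replicate 4) and −0.34 (without AFB1 replicate 5), with no call.

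FASN encodes fatty acid synthase, which builds palmitate, and lies on chromosome 11 from 50277419 to 50296144 on the plus strand. Its FPKM was 6.49, 7.76, 6.42, 4.04 and 4.66 in CON replicates 1 to 5, 9.53, 6.44, 4.69 and 3.31 in AFB1 replicates 2 to 5, and 3.82, 7.58, 6.39, 6.33 and 6.56 in AFB1_CUR replicates 1 to 5. Each group held low libraries (AFB1 replicates 4 and 5, AFB1_CUR replicate 1, CON replicates 4 and 5) and the group means were close (CON 5.88 ± 1.51, AFB1 5.99 ± 2.68, AFB1_CUR 6.14 ± 1.39, SD). ACACA, which encodes acetyl-CoA carboxylase 1 and supplies malonyl-CoA to that enzyme, lies on the same chromosome from 13136279 to 13424655 on the minus strand. It ranged from 2.12 to 2.53 in the CON group, from 1.57 to 2.57 in the 4 AFB1 libraries and from 1.78 to 2.84 in the AFB1_CUR group, and its lowest values were again AFB1 replicate 5 and AFB1_CUR replicate 1.

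SREBF1 and SREBF2 encode the transcription factors themselves, the former directed mainly at fatty acid genes and the latter mainly at sterol genes. SREBF1 (chromosome 11, 34382401 to 34398512, plus strand) stood at 14.1, 13.8, 11.8, 6.69 and 10.004 FPKM in CON replicates 1 to 5. It stood at 14.9, 14.2, 8.70 and 6.41 in AFB1 replicates 2 to 5, and at 7.06, 11.3, 9.15, 13.1 and 12.9 in AFB1_CUR replicates 1 to 5. The libraries named as low in FASN were at the bottom of their groups here, other than CON replicate 5 and AFB1 replicate 4, which were second lowest. SREBF2 (chromosome 3, 218683538 to 218747991, plus strand) had group means of 23.5 ± 3.14 (CON, n = 5), 21.3 ± 5.11 (AFB1, n = 4) and 22.0 ± 4.15 (AFB1_CUR, n = 5), and all 3 groups overlapped.

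HMGCS1 (chromosome 16, 31544055 to 31566693, plus strand) encodes the cytosolic HMG-CoA synthase at the head of the mevalonate pathway. Its FPKM was 7.17, 6.73, 8.08, 7.04 and 6.80 in CON replicates 1 to 5, 7.45, 7.21, 8.00 and 8.42 in AFB1 replicates 2 to 5, and 7.26, 7.84, 8.50, 6.92 and 7.94 in AFB1_CUR replicates 1 to 5. INSIG1 (chromosome 4, 118718227 to 118731421, plus strand) encodes the sterol-responsive anchor of the SREBP escort. It stood at 11.7, 9.32, 13.03, 7.48 and 9.23 in CON replicates 1 to 5, at 8.18, 11.9, 11.3 and 8.79 in AFB1 replicates 2 to 5, and at 8.68, 8.77, 9.30, 10.3 and 7.88 in AFB1_CUR replicates 1 to 5. For both genes the 3 groups overlapped, and the AFB1_CUR libraries of INSIG1 were the closest together (SD 0.891, against 2.203 in CON and 1.83 in AFB1).

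A gene was called when its unadjusted p in edgeR's quasi-likelihood test was under 0.05 and its fold exceeded 1.5. The study applied the same cut-offs to another test, DESeq2. Among the 7 genes other than ELOVL6, none was called in AFB1_CUR against AFB1, where 0.993% of the 13394 genes tested were called (60 higher and 73 lower, or 85 and 61 with limma on log2(FPKM + 0.1), where the median over all genes moved from −0.00013 to 0.070), and none in AFB1_CUR against CON, where 1.75% were called (150 higher, 85 lower, but 52 higher and 79 lower without AFB1_CUR replicate 2). In AFB1 against CON, where the 8 genes are a description, 1.78% of all genes were called (90 higher, 148 lower). With AFB1 replicate 1 in the fit, that split was 548 higher and 130 lower. It was then 82 higher and 469 lower in AFB1_CUR against AFB1. After Benjamini-Hochberg adjustment over all genes, edgeR called 0 genes in each of the 3 comparisons, against 670, 311 and 747 at an unadjusted p under 0.05 in AFB1 against CON, AFB1_CUR against AFB1 and AFB1_CUR against CON. DESeq2 called 19, 3 and 2 genes after adjustment.

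In AFB1_CUR against AFB1, the log2 fold change of FASN was −0.01 (95% interval −0.53 to 0.51), that of ACACA 0.03 (−0.23 to 0.29) and that of SREBF1 −0.09 (−0.62 to 0.44). For the sterol side, SREBF2 gave −0.01 (−0.32 to 0.29), HMGCS1 −0.09 (−0.33 to 0.14) and INSIG1 −0.22 (−0.60 to 0.15). For FASN, ACACA, SREBF2 and HMGCS1 these intervals stayed within a fold of 1.5 in either direction, while those of SREBF1, INSIG1 and SCD reached past it on the lower side. Relative to CON, the AFB1_CUR group gave −0.24 (−0.60 to 0.11) for INSIG1, −0.18 (−0.47 to 0.11) for SREBF2, −0.15 (−0.64 to 0.35) for SREBF1 and −0.09 (−0.91 to 0.72) for SCD.

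Of the 8 genes, 4 were higher and 4 lower in AFB1 than in CON, with a median log2 fold change of −0.01 against 0.02 over all genes tested. In AFB1_CUR against AFB1, which shares the AFB1 libraries, 1 was higher and 7 lower (12.5% higher, against 50.0% of all genes), with a median of −0.09 against −0.00013. That count includes ELOVL6, chosen for its high AFB1 values, and FASN and SREBF2, whose values lay near 0 (−0.01 each). In AFB1_CUR against CON, 2 were higher and 6 lower (25% higher, against 49.5% of all genes), with a median of −0.09 against −0.0030. With AFB1 replicate 1 included, in AFB1 against CON 7 were higher and 1 lower and the median was 0.49 against 0.04. In that fit 5.05% of 13438 genes were called in AFB1 against CON, and INSIG1 moved from −0.02 (SE 0.18) to 1.44 (SE 0.60), SCD to 0.98 (SE 0.44) and HMGCS1 from 0.12 (SE 0.11) to 0.58 (SE 0.27). In AFB1_CUR against AFB1, where 4.1% of genes were then called, SCD (−1.06, SE 0.44) and INSIG1 (−1.67, SE 0.60) passed the call, with an adjusted p of 0.777 for each in edgeR. In AFB1_CUR against CON, where 1.12% were called, none of the 7 tested genes was called with AFB1 replicate 1 in the fit.

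**Figure D2:**
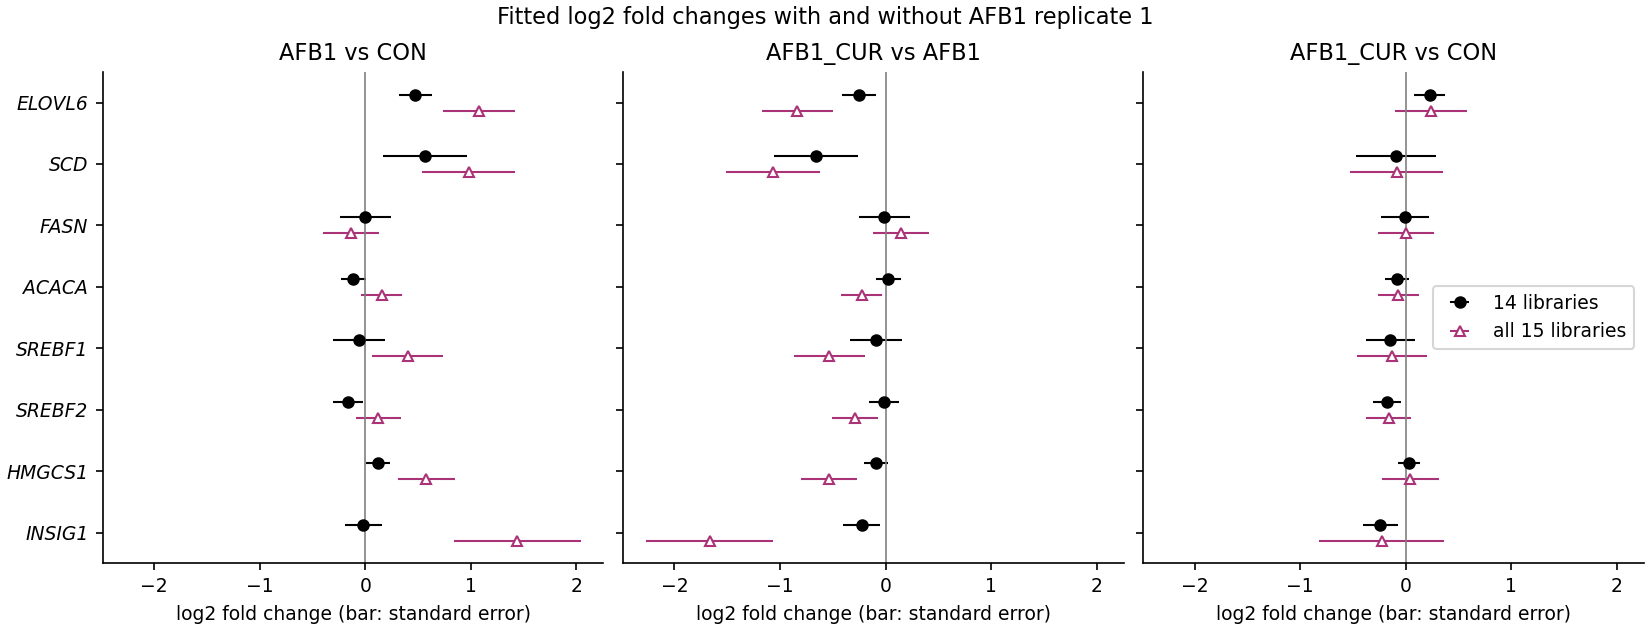
Fitted log2 fold changes (points) with their standard errors (bars) for the 8 genes in the 3 comparisons, from the 14 libraries (filled circles) and from all 15 (open triangles). INSIG1 moved from −0.02 to 1.44 in AFB1 against CON when AFB1 replicate 1 was added.

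In AFB1 replicate 1, INSIG1 stood at 58.9 FPKM, 6.35 times the median of the other 14 libraries. SCD (11.9) was at 2.55 times that median, ELOVL6 (5.42) at 2.52 times, HMGCS1 (13.3) at 1.81 times and SREBF1 (18.5) at 1.61 times, each above all 14. ACACA (2.55) and SREBF2 (26.3) lay within the range of the 14, and FASN (1.76) lay below all 14, at 0.275 times their median. On log2 CPM normalized by TMM over all 15 libraries, ACACA (5.60) and SREBF2 (7.96) lay above all 14, and FASN (4.70) still lay below. The ranks and ratios of AFB1 replicate 1 thus depended on the scaling. This library also held 15 of the 18 tested sterol synthesis genes above all 14 others, among them the acetoacetyl-CoA thiolase ACAT2 (304 FPKM against 32.0 to 64.3) and the sterol isomerase EBP (71.0 against 4.79 to 14.4). The summed level of all 18 was 743 FPKM against 173 to 252.

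On the FPKM scale, 9.62% of all genes tested lay above the 14 other libraries in AFB1 replicate 1 and 61.3% below. The fatty acid list was divided on this scale, with 6 of 23 genes above and 12 below. The desaturases FADS2 (146 FPKM against 3.73 to 40.9) and FADS1 (43.0 against 5.58 to 12.9) and the acyl-CoA synthetase ACSL5 (18.7 against 1.06 to 3.47) were high. The elongase ELOVL7 (0.427 against 8.71 to 27.9), the desaturase SCD5 (0.689 against 3.34 to 15.9) and malic enzyme ME1 (0.188 against 1.03 to 2.60) were low. Hence SCD and its paralogue SCD5 lay on opposite sides of the 14 libraries.

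**Figure D3:**
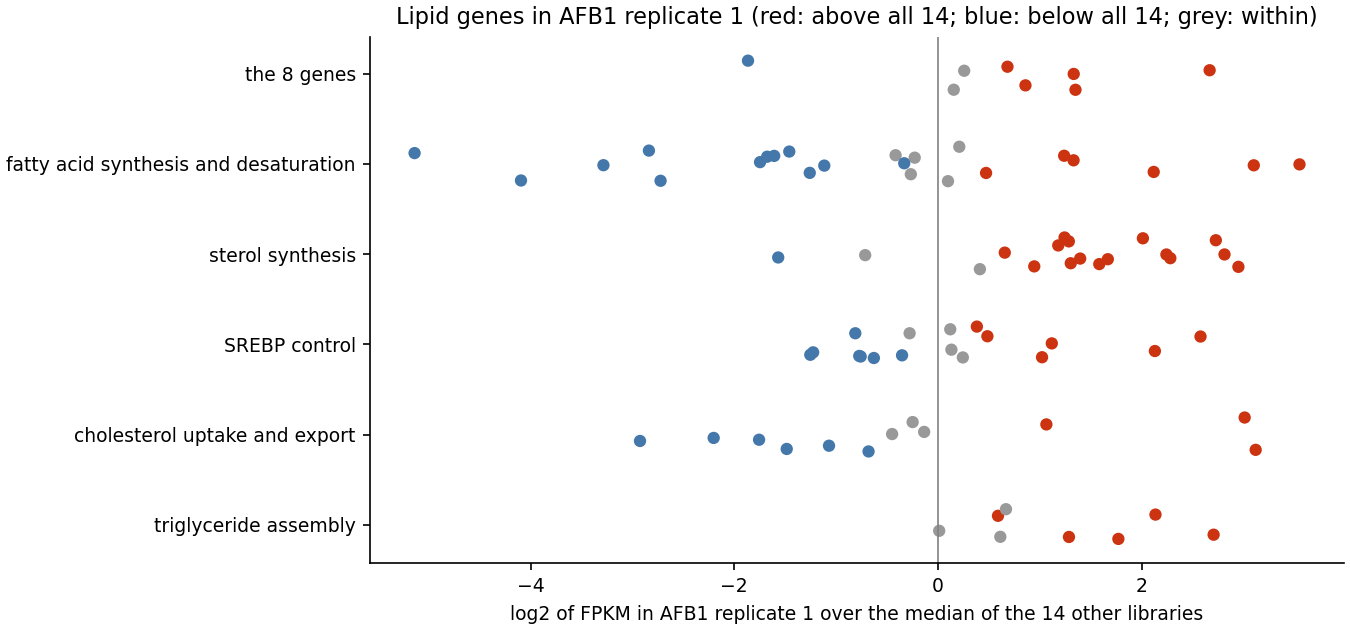
Each point is a gene of the 8 or of a pathway list, placed by the log2 ratio of its FPKM in AFB1 replicate 1 to the median of the other 14 libraries and coloured by whether it lay above, below or within their range (LRP2, at 0.00799 FPKM, is off the scale to the left). In the sterol synthesis row, 15 of 18 genes lay above all 14.

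The other genes of these pathways were taken as 5 lists holding 87 genes, of which 85 were in the table and 79 were tested. Over the 14 libraries, 35 were higher and 44 lower in AFB1 than in CON, with a median log2 fold change of −0.02 against 0.02 over all genes. Of the 79, 1 was called in AFB1 against CON, beside 1.78% of all genes, and none in AFB1_CUR against AFB1 or against CON, beside 0.993% and 1.75%, so that few calls would be found among 79 genes at these shares. None passed the adjusted threshold in edgeR, and 4, 0 and 4 had an unadjusted p under 0.05 in AFB1 against CON, AFB1_CUR against AFB1 and AFB1_CUR against CON, where 5%, 2.32% and 5.58% of all genes did. These counts are near or below the background. For the 18 sterol synthesis genes, 8 were higher and 10 lower in AFB1 than in CON (median −0.03), while in AFB1_CUR 4 stood above their CON level and 14 under it (median −0.12, against −0.0030 and 49.5% higher over all genes). In AFB1_CUR against AFB1, 8 were higher and 10 lower (median −0.04), and none of the 18 was called in any of the 3 comparisons, where at the shares over all genes less than 1 call would be found among 18.

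The called gene was APOE, the apolipoprotein that carries cholesterol to its receptors. Its FPKM was 702, 490, 467, 642 and 448 in CON replicates 1 to 5, and 306, 314, 322 and 491 in AFB1 replicates 2 to 5. Except for AFB1 replicate 5, the AFB1 libraries lay below all CON and all AFB1_CUR libraries, the latter being at 602, 448, 480, 542 and 455. The log2 fold change of AFB1 against CON was −0.61 (SE 0.23), with an unadjusted p of 0.019 and an adjusted p of 0.957 in edgeR. The call was lost without CON replicate 1 (−0.50), CON replicate 4 (−0.53), AFB1 replicate 2 (−0.51), AFB1 replicate 3 (−0.53) or AFB1 replicate 4 (−0.57), and the value was −0.86 without AFB1 replicate 5. In AFB1 replicate 1 APOE was at 4117, and with that library the log2 fold change turned to 1.58. AFB1_CUR against AFB1 gave 0.42 (SE 0.23) with an unadjusted p of 0.0882, and without AFB1 replicate 5 it gave 0.67 and was called.

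In AFB1 against CON, the other genes with an unadjusted p under 0.05, named here after their values were seen, had folds under 1.5. The acyl-CoA synthetases ACSL3 and ACSL4, which activate long-chain fatty acids, gave 0.22 (SE 0.10) and 0.35 (SE 0.12), and PNPLA2, the adipose triglyceride lipase, gave −0.39 (SE 0.15), each with an adjusted p of 0.957 in edgeR. ACSL4 was at 2.62, 3.44, 2.66, 2.57 and 2.79 FPKM in CON replicates 1 to 5 and at 4.62, 3.83, 3.52 and 2.59 in AFB1 replicates 2 to 5. In AFB1_CUR against CON, which shares the CON libraries, the 3 genes gave 0.24 (SE 0.10), 0.29 (SE 0.11) and −0.37 (SE 0.14), and PRKAA1, a catalytic subunit of AMP-activated kinase, gave 0.32 (SE 0.14), with an adjusted p of 0.816 for each.

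Other abundant genes of the lists without a call had an unadjusted p above 0.05 in AFB1 against CON in edgeR. The mitochondrial citrate carrier SLC25A1 (114 ± 25.4 FPKM over the 14 libraries) gave a log2 fold change of −0.15 (SE 0.26) and the enoyl reductase TECR (74.9 ± 11.7) −0.19 (SE 0.19). In sterol synthesis, ACAT2 (47.6 ± 10.5) gave −0.23 (SE 0.25). MBTPS1 (31.3 ± 3.30), the protease that makes the first cut in SREBPs, gave −0.12 (SE 0.15). The glycerol phosphate dehydrogenase GPD1 (116 ± 35.7) gave −0.32 (SE 0.34).

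The 8 genes did not vary as a block over the 14 libraries. Of their 28 pairs, 16 had a positive Pearson's r on log2 CPM and 12 a negative one. These are descriptions over 14 libraries that share 3 groups and their depth and tissue make-up. The closest pair was FASN and SREBF1 (r = 0.86, Spearman's rho = 0.78, and r = 0.76 without the 2 libraries farthest from the median of FASN), followed by FASN and SREBF2 (r = 0.76, rho = 0.75, and 0.53 without those 2 libraries). SREBF1 and SREBF2 had r = 0.68, and FASN and ACACA r = 0.55, the latter falling to −0.05 without the 2 farthest libraries. Removing the group means left FASN and SREBF1 at r = 0.87.

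SREBF1 and FASN were high on each other's lists. FASN was the 3rd of 13393 genes nearest to SREBF1, after the Hippo kinase LATS2 (r = 0.87) and its adaptor LIMD1 (r = 0.87). In the other direction, SREBF1 was 12th for FASN. ELOVL6 and SCD had r = 0.50 (rho = 0.62), which was 0.37 with the group means removed and 0.40 without the 2 farthest libraries, and SCD was 675th of the 13393 genes for ELOVL6. HMGCS1 and INSIG1 had only r = 0.35, and HMGCS1 ran against ACACA (r = −0.58), FASN (r = −0.50) and SREBF1 (r = −0.50). With AFB1 replicate 1 added, HMGCS1 and INSIG1 rose to r = 0.93 and FASN and SREBF1 fell to r = 0.03.

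**Figure D4:**
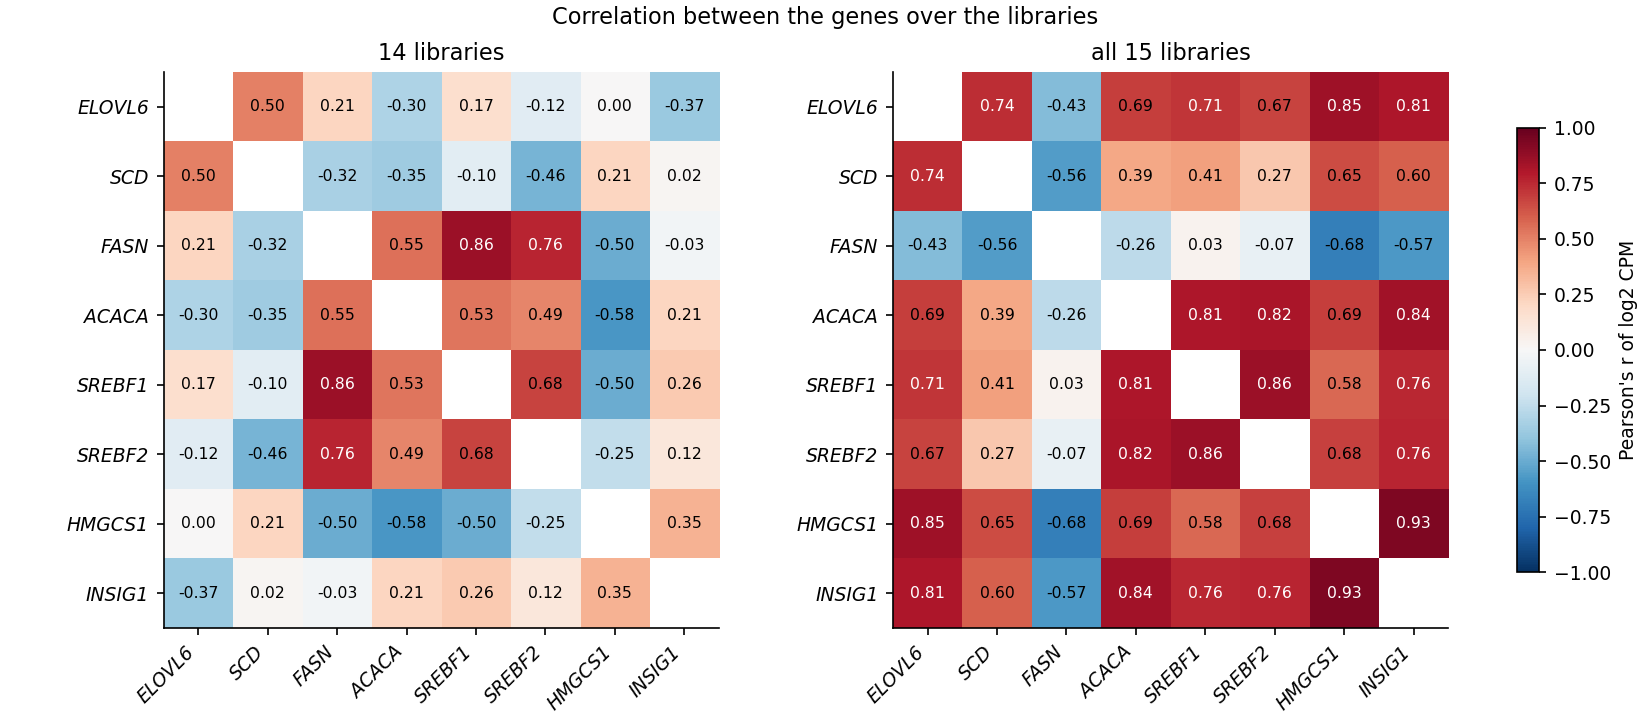
Pearson's r between the 8 genes on log2 CPM, over the 14 libraries (left) and over all 15 (right), from −1 (blue) to 1 (red). FASN and SREBF1 were at 0.86 on the left and at 0.03 on the right.

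The genes whose levels ran closest to each of the 8 were mostly outside lipid synthesis. ELOVL6 was nearest to SPTLC2 (r = 0.86, rho = 0.85), a subunit of serine palmitoyltransferase, which starts sphingolipid synthesis from palmitoyl-CoA, then to RNF217 (r = 0.83) and CREG1 (r = 0.81). SREBF2 was nearest to FADS6, a fatty acid desaturase family member (r = 0.95, rho = 0.94), then to RBM10 (r = 0.90) and CCDC106 (r = 0.87). HMGCS1 was nearest to NDUFC1, a subunit of respiratory complex I (r = 0.95, rho = 0.91), then to HEBP2 (r = 0.89) and LOC114110247, annotated as bolA-like protein 3 (r = 0.86). INSIG1 was nearest to LOC101122728, annotated as exocyst complex component 3-like protein 4 (r = 0.83), and to NDUFAF3, a complex I assembly factor (r = 0.81).

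For the remaining genes, SCD was nearest to ARFGEF2 (r = 0.87), ZMYND11 (r = 0.86) and UBR3 (r = 0.85). FASN was nearest to LOC101117505, annotated as phosphodiesterase 4A (r = 0.92), LTBR (r = 0.91) and WDR86 (r = 0.89). ACACA was nearest to MINK1 (r = 0.84), GNB3 (r = 0.84) and SPEF1 (r = 0.83). Each of these genes was picked for its r among 13393 genes over 14 libraries, so the values are high by choice.

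The level of FASN also ran with some of the marker sums. ADIPOQ was at 0.678 FPKM in AFB1_CUR replicate 2 and at no more than 0.0381 in the other libraries, so the adipocyte sum rested on its other genes. The 4 libraries lowest in FASN were AFB1 replicate 5, AFB1_CUR replicate 1, CON replicate 4 and CON replicate 5, and they held the 4 highest sums over 8 proximal tubule genes (3559, 2870, 3593 and 3333 FPKM, against 1434 to 2633 in the other 10). The next lowest, AFB1 replicate 4, was almost level with CON replicate 5 in FASN (4.69 against 4.66 FPKM) but held a sum of 1849. Over the 14 libraries, with the sums on the log2 scale, r was −0.73 (rho = −0.74) between FASN and the proximal tubule sum, 0.76 (rho = 0.77) with the adipocyte sum and 0.72 (rho = 0.61) with the macrophage sum. SREBF1 ran about equally with 9 loop and collecting duct genes (r = 0.61, rho = 0.73) and with the adipocyte sum (r = 0.60, rho = 0.72), and had r = 0.53 with the macrophage sum and −0.50 with the proximal tubule sum. SCD had r = 0.56 (rho = 0.45) with the hepatocyte sum, 0.49 (rho = 0.35) with the proximal tubule sum and −0.51 (rho = −0.35) with the macrophage sum, the last −0.14 without the 2 libraries farthest from the median sum. ELOVL6 had r = −0.34 with the proximal tubule sum, 0.61 (rho = 0.26) with the adipocyte sum and 0.38 with the macrophage sum. Without the 2 libraries farthest from the median of each sum, these were −0.08, 0.38 and 0.56. With the loop and collecting duct sum ELOVL6 had r = 0.35, which was 0.67 with the group means removed and −0.35 without the 2 farthest libraries, and AFB1 replicate 2 and AFB1_CUR replicate 5, the highest in ELOVL6, held the highest of these sums (2632 and 2630 FPKM). INSIG1 ran against the adrenal cortex sum (r = −0.63, rho = −0.67), most of which was HSD3B1 outside AFB1 replicate 2 and AFB1_CUR replicate 2. The part of these cell types in the levels of the 8 genes was not tested.

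**Figure D5:**
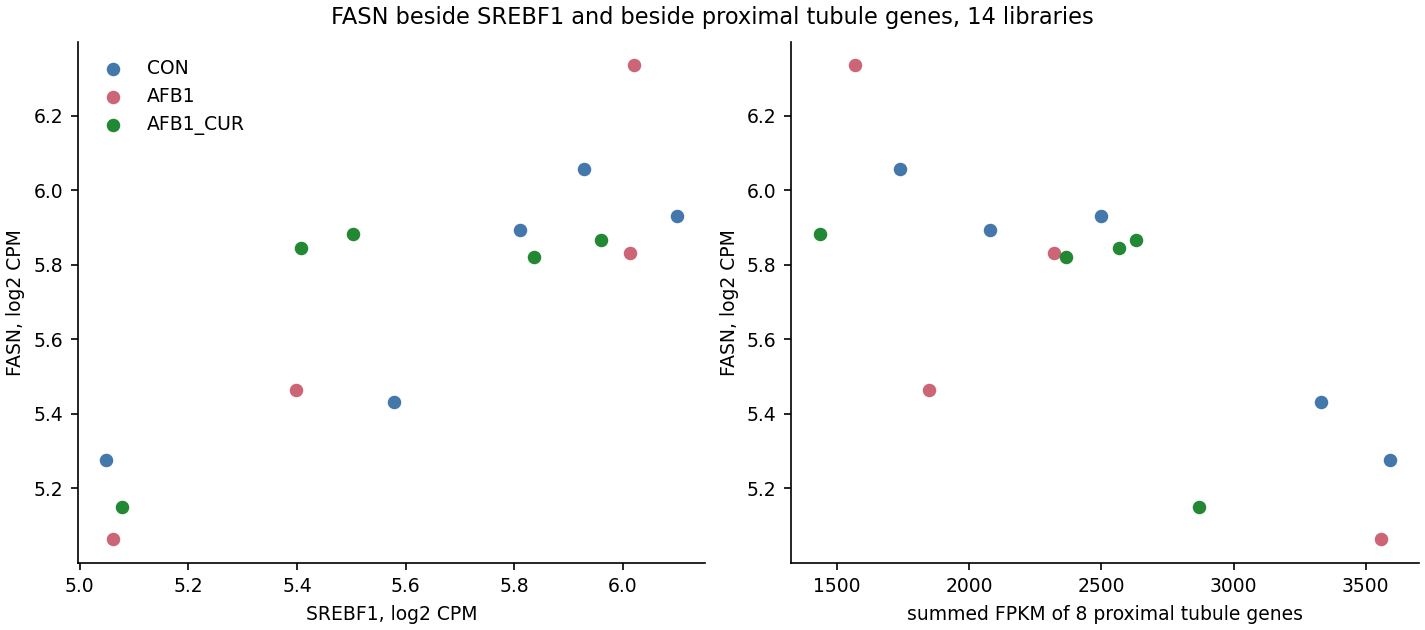
FASN, in log2 CPM, against SREBF1 on the same scale (left) and against the summed FPKM of 8 proximal tubule genes (right), for the 14 libraries coloured by group. The 4 libraries lowest in FASN had the highest proximal tubule sums, from 2870 to 3593 FPKM. AFB1 replicate 4, the next lowest and almost level in FASN with CON replicate 5, held 1849.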

How the data were processed

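Counts per gene and FPKM were deposited by the authors for 15 libraries, and the counts are whole numbers that were not normalized, while the deposited FPKM values are scaled to transcript length and library size. Per the submitters' processing notes the tools were cutadapt 1.9, HISAT2 2.2.1, StringTie 2.1.6, DESeq2 and edgeR, and the study's methods describe reads of 150 bases from both ends. The genome build is not given in the sources used here, but start and end of 24848 of 24947 matched symbols equal those of ARS-UI_Ramb_v3.0 in RefSeq. The libraries came from separate sheep, kept in shared pens, and were grouped by their titles.

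Genes reaching 1 FPKM in 4 or more libraries entered edgeR 4.0.16 (R 4.3.3), with TMM normalization and glmQLFit and glmQLFTest on group, in 1 model over 14 libraries. A call was an unadjusted p under 0.05 and a fold above 1.5, and Benjamini-Hochberg adjustment ran over all genes. Correlations used log2 CPM with a prior count of 2. Alternatives were all 15 libraries, DESeq2 1.42.0 and its size factors, no filter, limma 3.58.1 on log2(FPKM + 1) and log2(FPKM + 0.1), a replicate block, only the groups compared, and each replicate left out.

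The 8 genes, the 5 pathway lists and the 6 marker lists were chosen with earlier results of these data known. Named pathway genes were those called in any comparison, otherwise the 2 of each list with the highest mean FPKM, and for each of the 8 genes the 3 with the highest r. ACSL3, ACSL4, PRKAA1, MLXIPL, ELOVL3, LBR, LRP2 and the genes named for their level in AFB1 replicate 1 (EBP, FADS1, FADS2, ACSL5, ELOVL7, SCD5, ME1) were chosen after their values were seen. CYP51A1 was not analysed here, some genes that this rule names are not reported here, and no sequence was used here. The closest replicate pair differed by a chi-square of 80.8 per gene, so every library counted as its own sample. The SDs and SEs given are between libraries and include counting error, which was not estimated apart.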

Additional observations from a re-analysis of the deposited data

Results flagged for a closer look

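In groups of 4 or 5 libraries, 51 sets of values were searched for a library far from the rest of its group, and 5 were found. The threshold was Dixon's 95% critical value, which by construction marks about 1 in 20 sets of normally distributed values. ELOVL6 in AFB1 replicate 2 (3.47 FPKM) stood above the other 3 kidney libraries of its group (2.23 to 2.27), and SCD in CON replicate 5 (10.7 FPKM) stood above the other CON libraries (3.32 to 4.17). APOE in AFB1 replicate 5 (491 FPKM), ACSL4 in CON replicate 2 (3.44 FPKM) and GPD1 in CON replicate 4 (189 FPKM) were likewise the highest of their groups.

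AFB1 replicate 1, which entered no main comparison, held signal above every CON library. The summed FPKM of its hepatocyte markers was 54180, and it was above all CON libraries for ELOVL6 (5.42), SCD (11.9), ACACA (2.55), SREBF1 (18.5), HMGCS1 (13.3) and INSIG1 (58.9).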

How the results depend on the processing

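None of the 7 tested genes passed the adjusted threshold under any alternative run here. Called genes numbered 238, 133 and 235 (AFB1 against CON, AFB1_CUR against AFB1, AFB1_CUR against CON). They numbered 678, 551 and 150 with AFB1 replicate 1, 867, 707 and 928 without the filter on low values, and 108, 86 and 82 with limma on log2(FPKM + 1), and leaving out a replicate gave 211 to 469 (highest without AFB1 replicate 5), 125 to 275 (highest without AFB1 replicate 2) and 131 to 332 (lowest without AFB1_CUR replicate 2). Called pathway genes (1, 0 and 0) numbered 12 and 18 in the first and second comparisons with AFB1 replicate 1, 2 in the first comparison without the filter (adding ELOVL3) and 2 with limma on log2(FPKM + 0.1) (adding MLXIPL), and 1 in the third with DESeq2 (LBR), and leaving out a replicate gave 0 to 6, 0 to 2 and 0 to 1. Of the 7 tested genes, 2 were called in AFB1_CUR against AFB1 with AFB1 replicate 1, and 0 to 1 when a replicate was left out. Log2 fold changes of uncalled genes near 0 changed sign. The 2 limma settings moved the median of all genes from −0.00013 to 0.057 and 0.070 in AFB1_CUR against AFB1 and from −0.0030 to 0.056 and 0.066 in AFB1_CUR against CON. The part of this shift of all genes in the sign changes under limma was not tested. For AFB1_CUR against AFB1, FASN gave 0.14 with AFB1 replicate 1, 0.083 and 0.10 with limma on log2(FPKM + 1) and log2(FPKM + 0.1), 0.089 with the replicate block and −0.18 to 0.25 without a replicate. ACACA gave −0.23 with AFB1 replicate 1 and −0.060 to 0.11 without a replicate, SREBF1 0.0012 with limma on log2(FPKM + 0.1) and −0.25 to 0.045, SREBF2 0.054 and 0.056 with the limma settings and −0.095 to 0.10, and HMGCS1 −0.15 to 0.00087. For AFB1_CUR against CON, SCD gave 0.046 and 0.064 with the limma settings, 0.059 with the replicate block and −0.23 to 0.38, FASN 0.0041 with AFB1 replicate 1, 0.058 and 0.066 with the limma settings, 0.0099 with the replicate block and −0.11 to 0.10, and HMGCS1 −0.017 to 0.076. With AFB1 replicate 1, AFB1 against CON gave 1.58 for APOE, 0.36 for PNPLA2, 0.11 for SLC25A1, 0.060 for TECR, 1.42 for ACAT2 and 0.13 for GPD1, and AFB1_CUR against AFB1 gave −1.76 for APOE. Leaving out a replicate gave −0.37 to 0.048 for SLC25A1. The cause of the sign changes and of the other shifts was not tested. Of 13 pairs of same-numbered libraries, 5 had deviations correlated above 0.1 (range −0.27 to 0.55), so the numbers were not taken as pairs, although the 3 pairs of replicates numbered 2 had 0.38 to 0.55, and the replicate block gave 239, 158 and 300 called genes and −0.52 for APOE, whose call was lost, while MLXIPL (−0.60) was called in AFB1 against CON. The 2-farthest-libraries alternative for correlations was chosen after seeing the data.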
